A study of Rattus norvegicus with 34 samples.

Results

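Testis macrophage and complement genes were followed in rats exposed to a triazole fungicide. They were the complement genes C1qa, C1qb and C1qc and the macrophage genes Cd68, Csf1r, Cd163, Lyz2, Aif1 and Mrc1. Every probe set whose only gene symbol in the platform annotation was 1 of these names was taken, which gave 10 probe sets for 9 genes, of 31042 probe sets tested and 14217 genes named. Aif1 had 2 probe sets and each of the other genes 1. The genes were chosen by name, not by their values, but with earlier results of these data known.

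Testis RNA of single adult Wistar Han rats had been hybridised to an Affymetrix rat genome array, 1 array per animal. Exposure to the fungicide ran from gestation day 6, before the animals were born, to postnatal day 92. Myclobutanil was given at 500 ppm (M500, 3 arrays) or 2000 ppm (M2000, 5 arrays). Propiconazole was given at 500 ppm (P500, 4 arrays) or 2500 ppm (P2500, 5 arrays), and triadimefon at 500 ppm (T500, 4 arrays) or 1800 ppm (T1800, 4 arrays). The Control animals, with 6 arrays, received 0 ppm. A further array each of M500 (replicate 03), T1800 (replicate 01) and Control (replicate 01), 3 in all, the submitters set aside from their own final analysis, and those were not analysed here. Litters are not given in the sources used here, so the p-values measure only the spread between these animals, some of which may be littermates.

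Macrophages live in the interstitium of the testis beside the Leydig cells and around the seminiferous tubules, where they clear debris and support steroid production. C1q, the recognition molecule of the classical complement pathway, is assembled from A, B and C chains that C1qa, C1qb and C1qc encode, and in most tissues macrophages are its main source. Whole testis is mostly germ cells, so macrophage transcripts are a small part of its RNA. In such bulk RNA, fewer cells of a type and less RNA per cell cannot be told apart.

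The promoters of the genes whose scores varied together are shown for C1qa, C1qb, Cd68 and Lyz2. The set of RefSeq promoters used here, on the GRCr8 assembly, gave windows of 300 bases around the start of the gene. It held 7 of the 9 genes and had no entry for C1qc or Aif1. The capitals mark GAGGAA, or TTCCTC on the other strand, which is the core of the motif bound by PU.1, a transcription factor that macrophages need to form. The windows are chr5:154419884-154420183 for C1qa, chr5:154407778-154408077 for C1qb, chr10:54882392-54882691 for Cd68 and chr7:54797962-54798261 for Lyz2, all on the minus strand and written 5′ to 3′.
C1qa: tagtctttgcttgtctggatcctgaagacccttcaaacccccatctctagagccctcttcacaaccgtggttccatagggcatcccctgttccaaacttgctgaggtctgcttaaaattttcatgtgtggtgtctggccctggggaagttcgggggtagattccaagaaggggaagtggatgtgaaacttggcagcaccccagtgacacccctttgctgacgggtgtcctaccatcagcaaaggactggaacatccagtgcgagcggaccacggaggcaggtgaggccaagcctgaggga
C1qb: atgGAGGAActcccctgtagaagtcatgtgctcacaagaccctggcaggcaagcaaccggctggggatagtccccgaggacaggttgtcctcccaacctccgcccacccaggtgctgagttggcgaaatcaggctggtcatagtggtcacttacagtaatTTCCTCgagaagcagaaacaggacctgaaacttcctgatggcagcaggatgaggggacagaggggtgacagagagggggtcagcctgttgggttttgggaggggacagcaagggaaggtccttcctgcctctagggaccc
Cd68: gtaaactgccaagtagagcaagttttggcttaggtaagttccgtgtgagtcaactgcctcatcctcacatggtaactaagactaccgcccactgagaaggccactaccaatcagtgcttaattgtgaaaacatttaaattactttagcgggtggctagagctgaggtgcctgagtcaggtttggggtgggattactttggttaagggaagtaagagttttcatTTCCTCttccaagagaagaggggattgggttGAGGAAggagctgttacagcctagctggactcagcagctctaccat
Lyz2: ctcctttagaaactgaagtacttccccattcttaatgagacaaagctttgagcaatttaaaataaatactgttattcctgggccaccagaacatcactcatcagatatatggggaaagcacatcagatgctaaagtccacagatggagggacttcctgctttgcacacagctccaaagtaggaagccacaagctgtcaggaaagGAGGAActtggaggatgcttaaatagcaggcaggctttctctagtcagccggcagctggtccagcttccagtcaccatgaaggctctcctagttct
The C1qa window held no match, that of Lyz2 held 1, and those of C1qb and Cd68 held 2 each. Among the 7 member promoters, 5 held a match on either strand, against 27.6% of the 33469 promoters of this length in the table. No member window held TATAAA on either strand, which 14.2% of all windows held. C1qb, C1qc and C1qa follow each other as neighbouring protein-coding genes on chromosome 5.

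The measurement was the authors' deposited score per probe set, quantile normalized here across the arrays. Its log base and centring are not known, so differences are in score units and are not folds. Between arrays, 6.32% to 17.6% of probe sets scored above bioB, a control transcript spiked in at a low amount. The probe set 1368558_s_at of Aif1, the calcium-binding protein IBA1 of macrophages, scored above bioB on 31 of 31 arrays, Mrc1 on 29 and Lyz2 on 22. The probe sets for C1qa, C1qb, C1qc, Cd68, Csf1r and Cd163 and 1369489_at of Aif1 scored above it on 0 of 31 arrays. The mean of 1368558_s_at, 2.51, lay above those of 98.3% of all probe sets, and the mean of 1369489_at, 0.135, above those of 59.4%. Which cells of the testis gave the high score of 1368558_s_at was not tested, so it cannot be read as a measure of macrophages alone.

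Germ cell genes marked the tissue as testis, with a mean score over 7 measured genes of 3.71 to 3.75 on T1800 arrays and 3.42 to 3.76 on Control arrays. Some arrays stood apart in RNA quality or in content. The actin gap, the score of the 3′ beta-actin control probe set minus that of the 5′ one, widens when RNA is degraded or copied short. It exceeded 1.4 on 5 arrays: M500 replicate 04, M2000 replicate 05, P2500 replicate 05 and Control replicates 02 and 06. The mean gap was 0.790 ± 0.075 in T500 (SD, n = 4), 0.852 ± 0.053 in T1800 (n = 4) and 1.12 ± 0.41 in Control (n = 6). P2500 replicates 02, 03 and 04 carried liver transcripts, with Alb (albumin) at 3.89 to 4.15 against -0.124 to 2.29 on the other 28 arrays. T1800 replicates 03 to 05 and Control replicates 05 to 07 had animal numbers above 3000, called the later series here. All other arrays had lower numbers, called the earlier series. The split was made here from the numbers, and the labels name no such series.

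C1qa, the A chain of C1q, scored above every Control array on all arrays of the high triadimefon dose. Its probe set 1376652_at scored 0.257, 0.255, 0.267 and 0.194 in T1800, against a lowest score of -0.0192, a median of 0.0879 and a highest of 0.116 in Control. The 4 T1800 and 6 Control arrays did not overlap. The mean was 0.244 ± 0.033 in T1800 (n = 4) and 0.0789 ± 0.0503 in Control (SD, n = 6), a difference of 0.165 score units with a standard error of 0.035. Over all probe sets limma gave an adjusted p of 0.204, which misses the 0.05 threshold, from an unadjusted p of 7.9e-05 that ranked 11th by p among the 31042. With limma's array weights, which give noisier arrays less influence, the difference was 0.140 and the adjusted p 0.0025. That setting also called more of all probe sets. Across the 20 alternatives run, the difference ran from 0.140 to 0.181 and the adjusted p from 0.0025 to 0.9996. It was 0.168 in the later animal series alone, 0.170 in the earlier series, which holds 1 T1800 array, and 0.142 without the 5 arrays of high actin gap.

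C1qb and C1qc, the other chains of C1q, had smaller differences in T1800 that did not pass the adjusted p. C1qb scored 0.504, 0.458, 0.503 and 0.495 in T1800, against 0.258 to 0.491 with a median of 0.378 in Control. The difference was 0.107 (95% interval -0.0077 to 0.222, unadjusted p = 0.066, limma adjusted p = 0.767). C1qc scored 0.161, 0.147, 0.165 and 0.0789 in T1800, against -0.0577 to 0.119 with a median of 0.0676 in Control. For both genes 3 of the 4 T1800 arrays lay above every Control array and the groups overlapped. The C1qc difference was 0.0826 (95% interval 0.0030 to 0.162, unadjusted p = 0.042, limma adjusted p = 0.767). Both genes scored low on the 5 arrays of high actin gap, of which 2 are Control and 0 are T1800. Without these arrays the difference was 0.0628 for C1qb and 0.0516 for C1qc, and with the gap as a covariate it was 0.0454 for each (limma adjusted p = 0.948 for C1qb and 0.919 for C1qc).

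Lyz2, the lysozyme of macrophages and granulocytes, had its largest differences from Control in both triadimefon groups, and neither passed the adjusted p. Its scores were 1.07, 1.08, 1.07 and 1.005 in T1800, against a lowest of 0.660, a median of 0.890 and a highest of 0.988 in Control. The T1800 and Control groups did not overlap. The difference was 0.202 ± 0.065 (standard error; unadjusted p = 0.0045, limma adjusted p = 0.735). In T500 Lyz2 scored 1.03, 1.10, 1.24 and 0.880, of which 3 lay above all Control arrays and replicate 04 lay among them. That difference was 0.210 (unadjusted p = 0.0034, limma adjusted p = 0.521). Of 23 other macrophage genes and 3 neutrophil genes measured, 0 were higher in T500 at an unadjusted p under 0.05, against 4.04% of all probe sets. Genes of other cell types were counted at the same p. Higher were 1 of 3 measured erythrocyte genes, 2 of 7 Leydig cell genes, 3 of 6 fibroblast genes, 1 of 8 T cell genes and 1 of 7 germ cell genes. In all these lists 0 passed the adjusted p. The erythrocyte gene was Hbb, a beta globin, which differed by 0.7095 (limma adjusted p = 0.521). Their part in the Lyz2 difference was not tested. Lyz2 also varied with RNA quality: without the arrays of high actin gap the T1800 difference was 0.121 (adjusted p = 0.789).

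Cd68, a lysosomal glycoprotein of macrophages, scored 0.0298, 0.0881, 0.0522 and -0.0167 in T1800, against -0.122 to 0.0204 with a median of -0.0110 in Control. On 3 of the 4 arrays the score was above every Control array and T1800 replicate 05 was not. The difference was 0.0638 (unadjusted p = 0.043, limma adjusted p = 0.767). Cd68 was low on the arrays of high actin gap, among them Control replicate 02 at -0.122, and without those arrays the difference was 0.0366 (unadjusted p = 0.161).

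The receptors had T1800 differences whose intervals span 0, and only that of Csf1r kept its sign across the alternatives. Csf1r, the receptor for CSF1 that macrophages need to survive, scored 0.0679, 0.0680, 0.111 and -0.0072 in T1800, against 0.0568 to 0.248 with a median of 0.0902 in Control, and the groups overlapped. Its difference was -0.0515 (95% interval -0.117 to 0.0137), and -0.0141 without the arrays of high actin gap. Cd163, which takes up haemoglobin bound to haptoglobin, scored -0.0389, -0.0288, -0.0041 and -0.193 in T1800, against -0.114 to 0.138 in Control, and differed by -0.0245 (95% interval -0.114 to 0.0649). Mrc1, the mannose receptor CD206, scored 1.18, 1.201, 1.15 and 1.05 in T1800, against 1.08 to 1.55 in Control, and differed by -0.0903 (95% interval -0.317 to 0.137). For both genes the T1800 scores overlapped those of Control. Their differences turned positive without the arrays of high actin gap (0.0171 for Cd163 and 0.0441 for Mrc1), with the gap as a covariate (0.0113 and 0.0437) and with array weights (0.0309 and 0.0421). The 2 Aif1 probe sets differed by 0.290 (1368558_s_at, 95% interval -0.0399 to 0.621) and by -0.0018 (1369489_at, 95% interval -0.0535 to 0.0499). The wide interval of 1368558_s_at goes with Control scores of 1.68 and 1.82 on the 2 Control arrays of high actin gap, where the other 4 lay between 2.63 and 2.68, and without the arrays of high gap its difference was -0.0113.

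**Figure D1:**
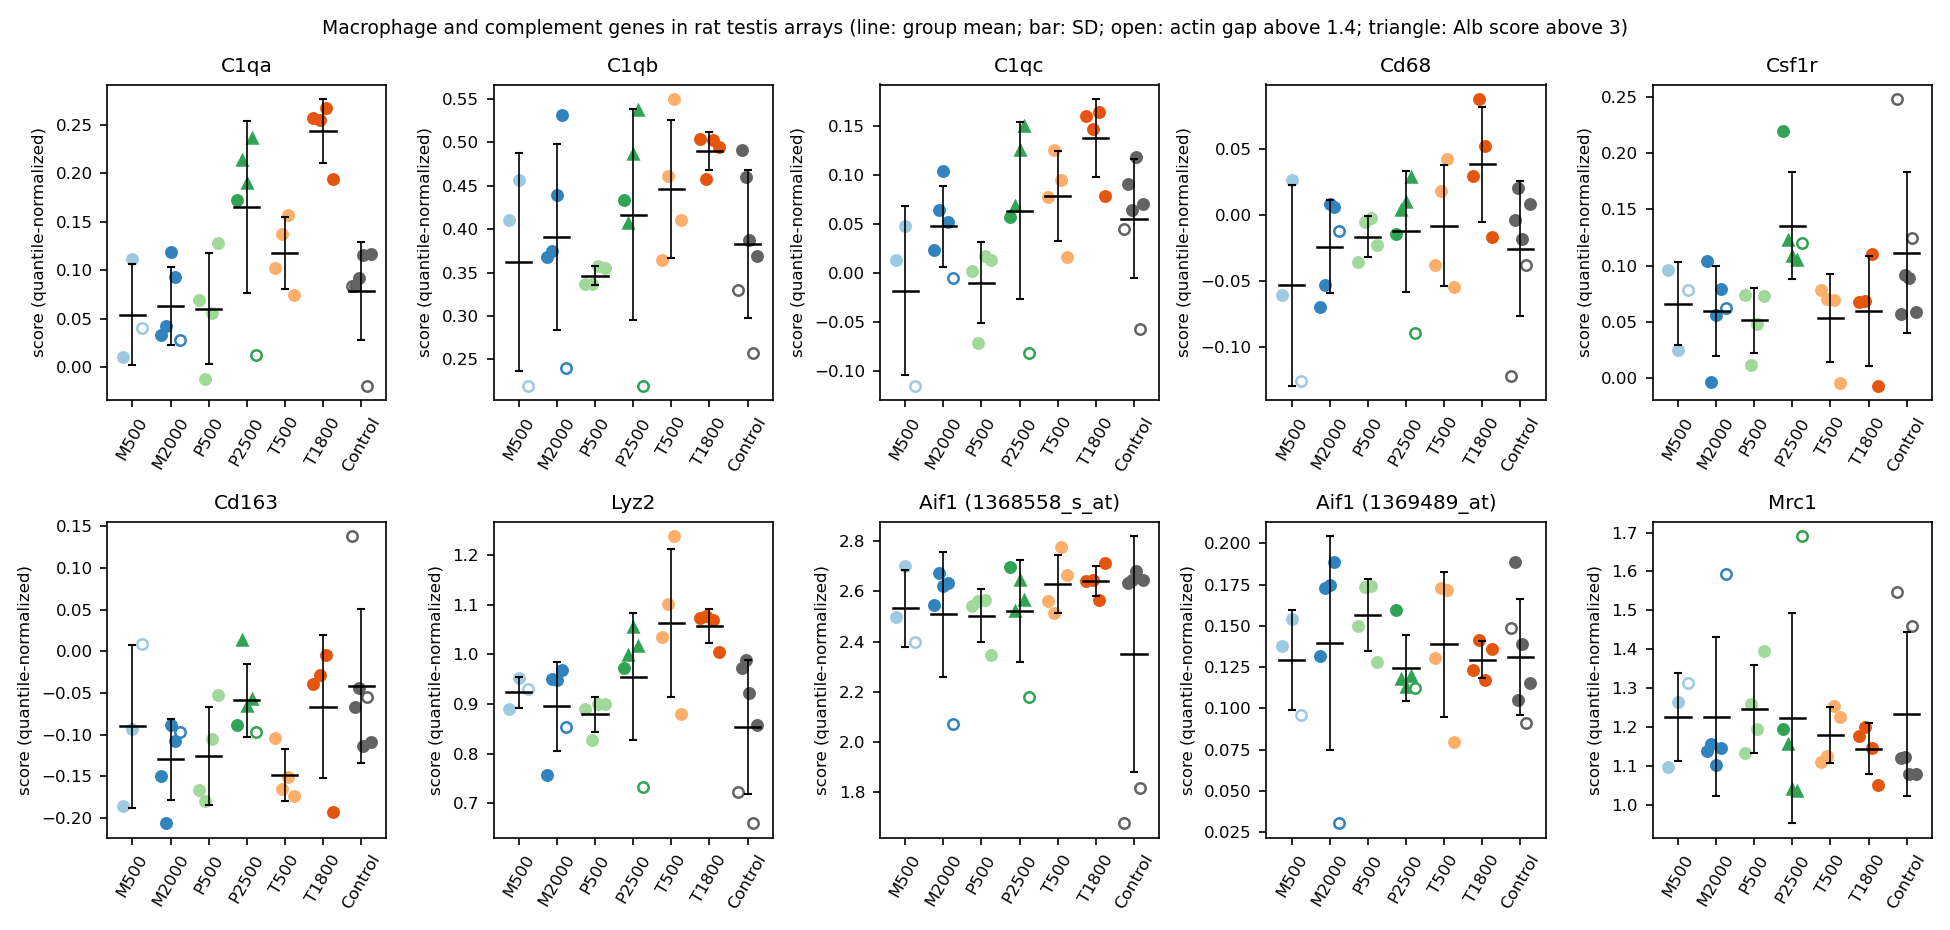
Quantile-normalized score (y axis, score units) of each probe set on each array by group (x axis), with a line for the group mean and bars for the SD, open circles for arrays with an actin gap above 1.4 and triangles for P2500 arrays with an Alb score above 3. The 4 T1800 arrays of C1qa lie between 0.194 and 0.267, above every Control array, and the open circles are low for C1qb and high for Mrc1.

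Counted over the 10 probe sets, 0 passed limma's adjusted p of 0.05 in T1800 against Control, where 0.00644% of all probe sets did. With array weights 1 passed, which was C1qa. Array weights raised the calls over all probe sets as well, by counts given with the alternatives at the end. At an unadjusted p under 0.05, 4 were higher in T1800 (C1qa, C1qc, Cd68 and Lyz2), against a background of 3.5% of all probe sets, and 0 were lower, against 2.35%. Non-overlapping higher scores were found for 2 (C1qa and Lyz2), against 1.13% of all probe sets. The median difference of the 10 was 0.0732, against -0.0029 for all probe sets.

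In P2500 only C1qa reached an unadjusted p under 0.05 among the 10. It scored 0.173, 0.214, 0.190, 0.237 and 0.0126 in P2500, against -0.0192 to 0.116 in Control. On 4 of the 5 P2500 arrays the score was above every Control array, and replicate 05, which has a high actin gap, was low. The difference was 0.0864 (standard error 0.033, unadjusted p = 0.015, limma adjusted p = 0.788). Without replicate 05 it was 0.125 (adjusted p = 0.0236). With array weights it was 0.100 (adjusted p = 0.0143). Both settings also called more of all probe sets, where the main fit called 0, by counts given with the alternatives at the end. Both kept the P2500 arrays that carried liver transcripts.

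The liver transcripts lay on P2500 arrays where C1qa was high. Without P2500 replicates 02, 03 and 04 the C1qa difference was 0.0139 (unadjusted p = 0.741). Of those left, replicate 01, with Alb in the range of the other arrays, scored 0.173 and replicate 05 scored 0.0126. All 13 measured liver genes were higher in P2500 at an unadjusted p under 0.05, against 2.41% of all probe sets, and 0 passed the adjusted p. Kupffer cells, the macrophages of the liver, express C1q genes too, and 2 of 5 markers of theirs were measured. Clec4f, a lectin of Kupffer cells, scored 0.0455 to 0.204 on the 3 arrays and -0.0397 to 0.211 on the other 28. Cd5l, a secreted protein of tissue macrophages, scored -0.301 to -0.167 on the 3 and -0.407 to -0.193 on the others. The part of liver RNA in the P2500 scores was not tested.

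In P2500 against Control 0 of the 10 probe sets passed the adjusted p (background 0%), 1 was higher at an unadjusted p under 0.05 (background 2.41%) and 0 were lower (1.74%). Non-overlapping higher scores were found for 0 of 10 (background 0.113%). In T500 0 passed (0%), 1 was higher at an unadjusted p under 0.05, Lyz2 (background 4.04%), and 1 was lower, Cd163 (background 3.58%). Cd163 scored -0.104, -0.165, -0.150 and -0.173 in T500, against -0.114 to 0.138 with a median of -0.0609 in Control. The scores of 3 T500 arrays lay below every Control array and that of replicate 01 did not. The Cd163 difference was -0.106 (unadjusted p = 0.022, limma adjusted p = 0.606). With group means taken out, Cd163 rose with the actin gap (r = 0.558, and 0.477 in the 26 arrays of low gap). The mean gap was 0.790 in T500 and 1.12 in Control, where replicate 02, of high gap, scored the 0.138. The part of the gap in this difference was not tested.

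The myclobutanil groups and P500 gave few differences. In M2000 Cd163 averaged -0.130, against -0.0417 in Control (difference -0.0879, unadjusted p = 0.041, limma adjusted p = 1). It was the 1 probe set lower at an unadjusted p under 0.05 there (background 0.767%), 0 were higher (background 0.934%) and 0 passed the adjusted p (0%). The mean actin gap, with which Cd163 rose, was 0.994 in M2000 and 1.12 in Control. In M500 0 of 10 passed (0%), 0 were higher (4.85%) and 0 were lower at an unadjusted p under 0.05 (4.15%). In P500 the same counts were 0 (0%), 0 (2.07%) and 0 (1.28%). C1qa averaged 0.0545 ± 0.052 in M500 (SD, n = 3), 0.0632 ± 0.041 in M2000 (n = 5), 0.0606 ± 0.057 in P500 (n = 4) and 0.0789 ± 0.0503 in Control (n = 6). Array weights called 0 of the 10 in M500, M2000, P500 and T500, where their share over all probe sets is not reported here. The comparisons with Control share its 6 arrays.

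**Figure D2:**
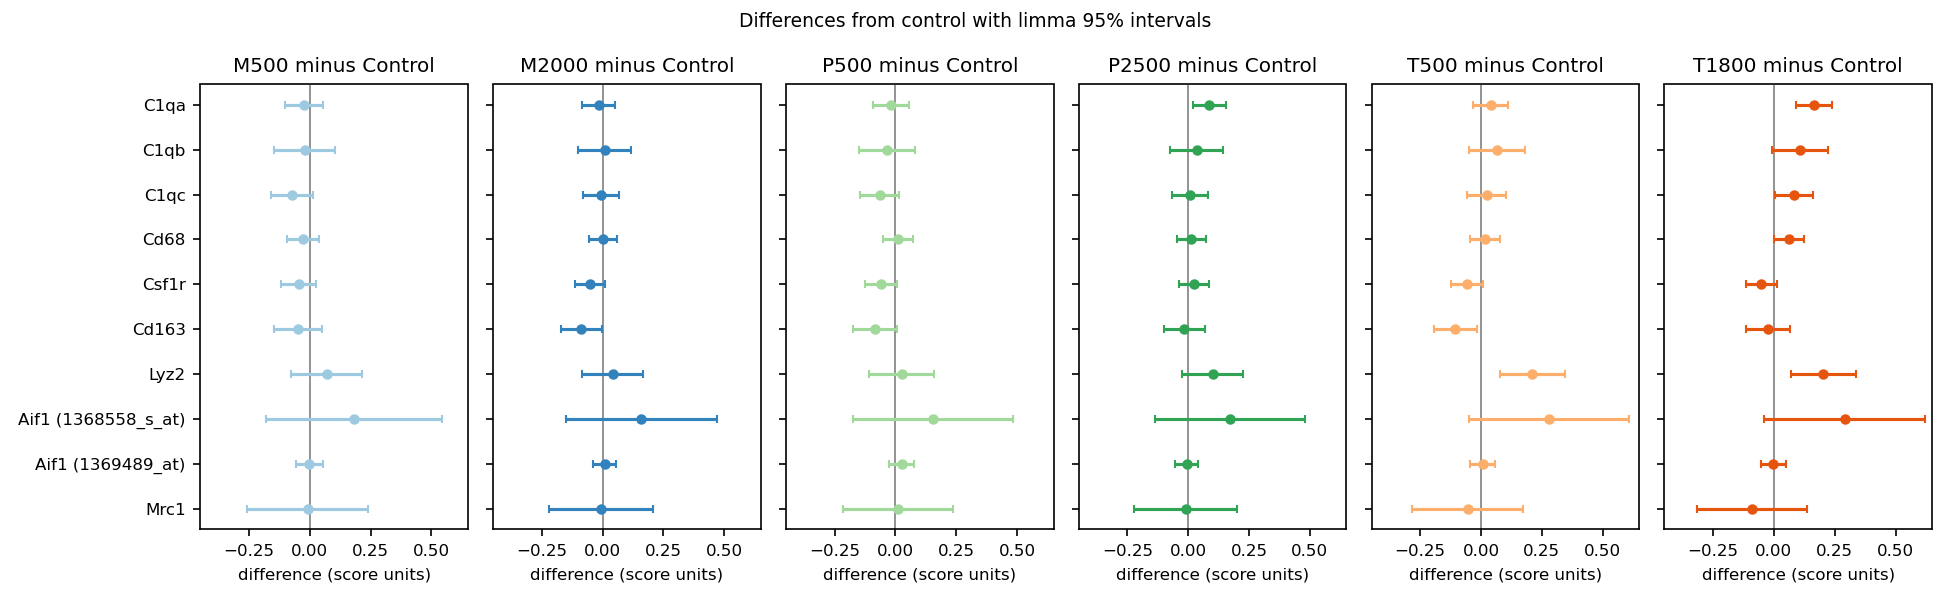
Difference of each exposed group minus Control in score units (x axis, points with limma 95% intervals) for each probe set (y axis), 1 panel per group. In T1800 the intervals of C1qa, C1qc, Cd68 and Lyz2 lie above 0, and in P2500 that of C1qa.

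Ordered by group mean, C1qa was lowest in M500, then P500, M2000, Control, T500 (0.118), P2500 (0.165) and T1800 (0.244). The neighbours M500, P500, M2000 and Control differed by less than the SD of any of them, and T500 overlapped P2500 in range, as P2500 did T1800. Lyz2 was lowest in Control (0.854) and then, rising, P500 (0.879), M2000 (0.895), M500 (0.924), P2500 (0.955), T1800 (1.06) and T500 (1.06). The means of its last 2 groups differed by less than either SD, as T1800 minus T500 was -0.0072 (95% interval -0.154 to 0.139).

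The 3 compounds share a triazole ring and could be compared at a matched dose of 500 ppm, in 3 pairs. Of the 10 probe sets 0 passed the adjusted p in M500 against P500 (background 0%) or in M500 against T500 (0%). In P500 against T500 0 passed too (0%). With array weights 0 passed in these 3 pairs, and the share over all probe sets under those weights is not reported here. In M500 against P500 0 reached an unadjusted p under 0.05 (background 7.48%). At an unadjusted p under 0.05, C1qc differed in M500 against T500 (-0.0968, 95% interval -0.191 to -0.0026, background 6.69% in either direction). In P500 against T500, C1qc (-0.0886, 95% interval -0.176 to -0.0015) and Lyz2 (-0.184, 95% interval -0.331 to -0.0378) did (background 5.08%). For C1qa the intervals were -0.0921 to 0.0798 for M500 minus P500, -0.149 to 0.0224 for M500 minus T500 and -0.137 to 0.0223 for P500 minus T500. The missed threshold does not show that the compounds act alike. The high doses differ between compounds and were not tested against each other. C1qa averaged 0.0632 in M2000, 0.165 in P2500 and 0.244 in T1800.

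Within a compound, the high dose was set against 500 ppm. In T1800 against T500, C1qa differed by 0.126 (95% interval 0.0461 to 0.205, unadjusted p = 0.0032, limma adjusted p = 1). It was the 1 probe set of 10 past an unadjusted p under 0.05 (background 1.97%), and 0 passed the adjusted p (background 0.00322%). With array weights 1 passed, C1qa again, and more of all probe sets passed as well. In P2500 against P500, C1qa differed by 0.105 (unadjusted p = 0.0084) and Csf1r by 0.0837 (unadjusted p = 0.017), 2 of 10 against a background of 3.83%, and 0 passed the adjusted p (background 0%). With array weights 3 passed there (C1qa, C1qb and C1qc), and more of all probe sets passed as well. In M2000 against M500 0 passed (background 0%) and 0 reached an unadjusted p under 0.05 (background 7.55%). With array weights 0 passed there, and their share over all probe sets is not reported here. C1qa differed by 0.0088 (95% interval -0.0734 to 0.0909). The dose steps were also compared between compounds: the C1qa step of triadimefon minus that of propiconazole was 0.0210 (unadjusted p = 0.698) and minus that of myclobutanil 0.117 (unadjusted p = 0.046, limma adjusted p = 1).

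How the genes varied among themselves was described over the 31 arrays after the group means were taken out, in 36 pairs of genes with 100000 permutations and Benjamini-Hochberg adjustment. C1qa, C1qb, C1qc, Cd68 and Lyz2 correlated with each other in all 10 of their pairs, with Pearson's r of 0.591 to 0.839, Spearman's rho of 0.594 to 0.746 and adjusted p of 9e-05 to 0.00138. This group of 5 was seen in the values, so it has no test of its own. Without the 2 arrays farthest from the median of the first gene, r was 0.487 to 0.717. In the 26 arrays of low actin gap, a choice made after seeing the data, it was 0.364 to 0.743. The smallest p these permutations can give is 1e-05, which C1qa with C1qc had (r = 0.839).

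The receptors correlated otherwise over all arrays. Csf1r and Cd163 correlated with each other (r = 0.595, rho = 0.423, permutation p = 0.00066, adjusted p = 0.00148; r = 0.508 without the 2 farthest arrays), and with the other 5 genes r was -0.287 to 0.322. In the 26 arrays of low actin gap these 10 correlations were -0.0333 to 0.654, and Cd163 correlated with C1qa at 0.654, with Cd68 at 0.530 and with C1qc at 0.424, and Csf1r with Cd163 at 0.351. Mrc1 was negatively correlated with the 5 over all arrays (r of -0.686 to -0.419, adjusted p for r under 0.05 in 5 of 5 pairs). By rank, rho was -0.570 to -0.307, and its adjusted permutation p was 0.131 with both C1qa and Cd68. In the 26 arrays of low actin gap Mrc1 was not so correlated (r of -0.136 to 0.298). Aif1 (1368558_s_at) correlated with the 5 over all arrays (r of 0.443 to 0.657, also 5 of 5 pairs for r). Its rho was 0.343 to 0.619, with an adjusted permutation p of 0.0879 for C1qa. In the 26 arrays Aif1 likewise was not so correlated (r of -0.181 to 0.230). The 2 Aif1 probe sets correlated with each other at r = 0.435 (rho = 0.455, permutation p = 0.017).

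**Figure D3:**
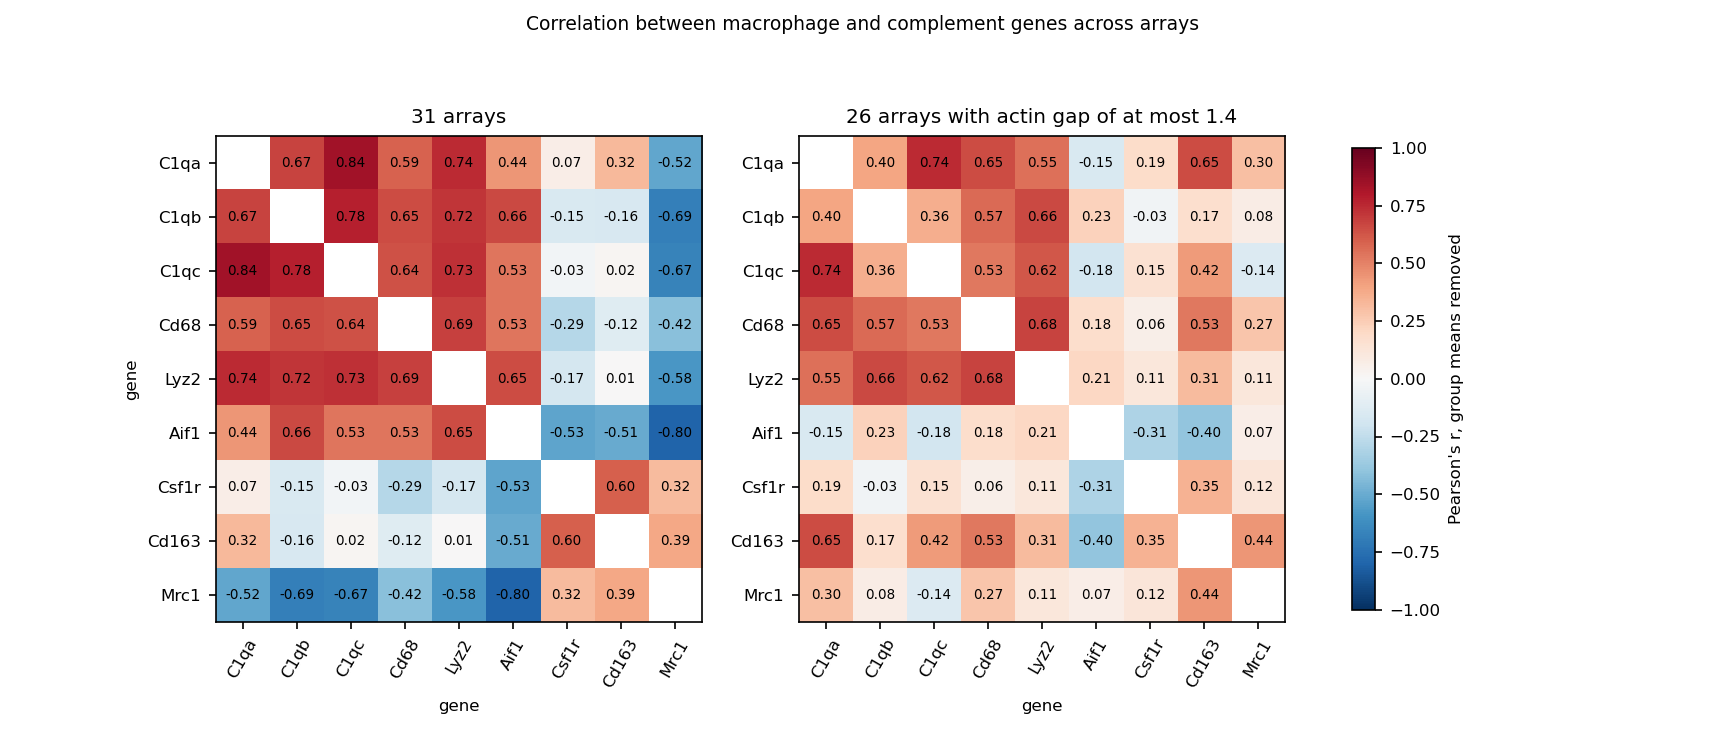
Pearson's r between genes (both axes; colour and number) after group means were taken out, over 31 arrays (left) and over the 26 arrays with an actin gap of at most 1.4 (right). C1qa, C1qb, C1qc, Cd68 and Lyz2 form a positive block in both panels, and Mrc1 is at -0.686 to -0.419 with them in the left panel and at -0.136 to 0.298 in the right one.

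RNA quality moved with these genes. C1qb scored 0.219 to 0.330 on the 5 arrays of high actin gap, below all 26 others (0.337 to 0.550). Mrc1 scored 1.31 to 1.69 on the 5, and on 4 of them above every other array (1.04 to 1.397). C1qa, C1qc, Cd68, Lyz2 and Aif1 (1368558_s_at) were below the median of the 26 on all 5. Across the 31 arrays with group means taken out, the Pearson correlation with the gap was -0.741 for C1qb (rho = -0.610), -0.882 for Aif1 (1368558_s_at; rho = -0.823), 0.802 for Mrc1 (rho = 0.695) and -0.442 for C1qa (rho = -0.314), in a family of 10 relations with adjusted permutation p of 3.33e-05 for the first 3 genes and 0.0146 for C1qa. These p are those of r, unadjusted 1e-05 for the first 3 genes, the smallest that these permutations can give, and 0.0131 for C1qa. For rho of C1qa the permutation p was 0.0874 (adjusted 0.0971). Without the 2 farthest arrays r was -0.721, -0.896, 0.798 and -0.514 in the same order of genes. Within the 26 arrays, however, r was -0.114 for C1qb, 0.191 for C1qa, 0.212 for Mrc1 and -0.561 for Aif1. So for C1qb, C1qa and Mrc1 the relation rests on the 5 arrays. Cd163 had r = 0.558 with the gap over the 31 arrays (rho = 0.547) and 0.477 within the 26. With the gap as a covariate, the T1800 difference of C1qa was 0.142 (limma adjusted p = 0.224) and that of C1qb 0.0454 (adjusted p = 0.948).

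**Figure D4:**
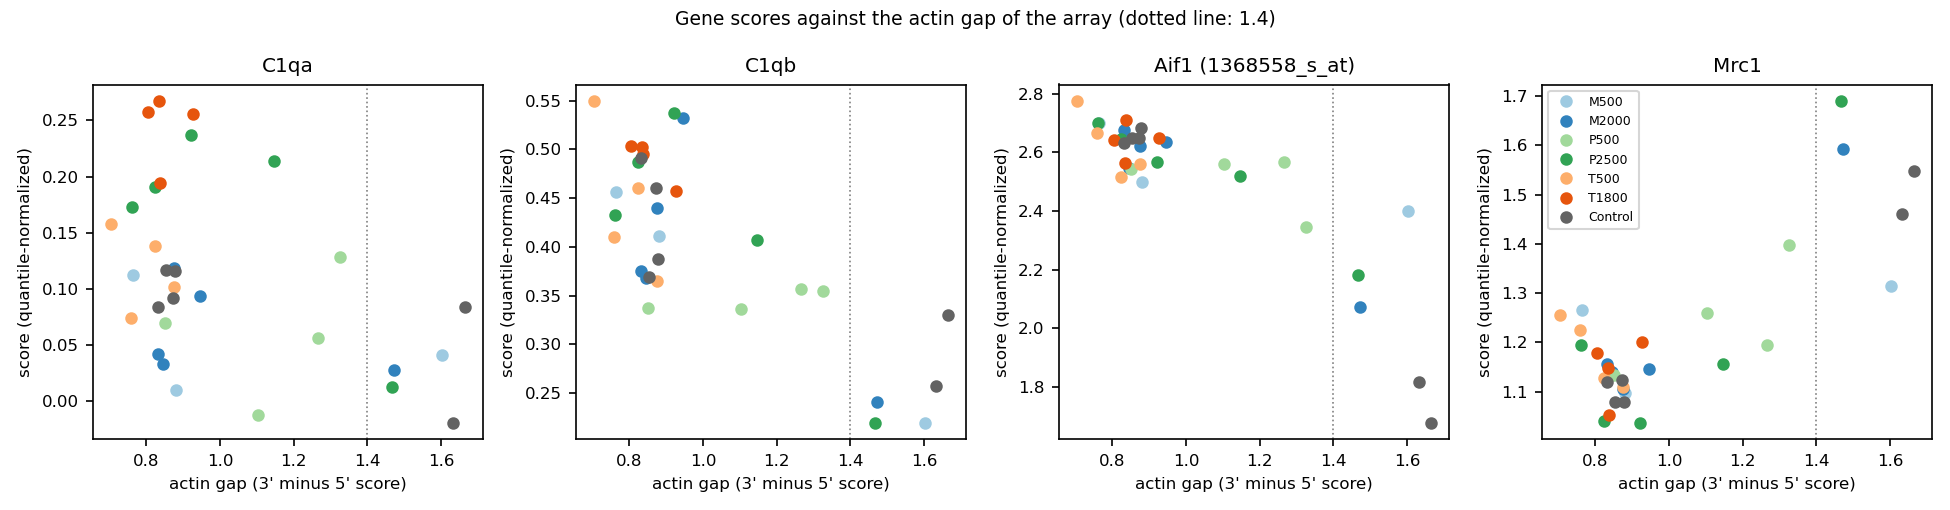
Score of 4 probe sets (y axis, score units) against the actin gap of the array (x axis, score units), 1 point per array coloured by group, with a dotted line at 1.4. On the 5 arrays right of the line C1qb and Aif1 are low and Mrc1 is high, and the T1800 arrays lie at the low end of the gap.

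Of 30 other macrophage genes listed 23 were measured, and 0 passed the adjusted p in any of the 12 comparisons. In T1800 against Control 20 of the 23 had a positive difference, where 47.1% of all probe sets did. At an unadjusted p under 0.05, 5 of the 23 were higher, against 3.5% of all probe sets, and 0 were lower. The median difference was 0.0366, against -0.0029 for all probe sets. Cd74, the invariant chain that guides MHC class II, averaged 1.14 in T1800 and 0.913 in Control (difference 0.229, limma adjusted p = 0.735). Fcer1g and Tyrobp, the signalling adaptors of Fc and other receptors, differed by 0.144 and 0.0625 (adjusted p = 0.767 for both). Cx3cr1, the fractalkine receptor, differed by 0.0681 (adjusted p = 0.767). Its difference was not particular to T1800, as it was 0.0654 in M2000 (limma unadjusted p = 0.024) and 0.0577 in P500 (limma unadjusted p = 0.058). In M2000 it was the 1 gene of the 23 higher at an unadjusted p under 0.05 (background 0.934%). In P2500 18 of the 23 were positive, where 44.97% of all probe sets were, and 3 were higher at an unadjusted p under 0.05 (background 2.41%), with Cd14, the co-receptor for lipopolysaccharide, at 0.111 (adjusted p = 0.118). In M500, M2000, P500 and T500 the positive counts were 11, 9, 14 and 17 of 23. Of all probe sets 50.1%, 49.9%, 51.0% and 48.9% were positive there, in the same order.

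The other complement genes were counted in the same way. Of 26 measured genes of 33 listed, 16 were higher in P2500 at an unadjusted p under 0.05, against 2.41% of all probe sets, and 0 passed the adjusted p, with C3, the central component, at a difference of 1.06 (adjusted p = 0.101) and Cfi, which cleaves C3b and C4b, at 0.452 (adjusted p = 0.081). Most complement proteins are made by the liver, and the mean over the list was 0.257 to 0.605 on the P2500 arrays, against 0.259 to 0.304 on Control arrays, with the liver transcripts on 3 of the 5. In T1800 only Cfd (complement factor D, an adipocyte and macrophage product) reached an unadjusted p under 0.05 among the 26 (background 3.5% higher), at a difference of 0.185 (adjusted p = 0.319), and the median difference was 0.0011.

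Genes of the CSF1 axis, which supplies the growth factors of macrophages, were all measured, 8 of 8, and 0 reached an unadjusted p under 0.05 in T1800, where 3.5% of all probe sets were higher and 2.35% lower. Il34, the other ligand of CSF1R, averaged 1.13 in T1800 and 0.894 in Control (difference 0.234, adjusted p = 0.767). Genes of neighbouring cell types were counted as well. In T1800 3 of 7 Leydig cell genes and 5 of 6 fibroblast genes were higher at an unadjusted p under 0.05, as was 1 of 3 erythrocyte genes, Hbb, against 3.5% of all probe sets, and 0 passed the adjusted p. Cyp17a1, the androgen-forming enzyme of Leydig cells, differed by 0.453 (adjusted p = 0.735), and Dcn, the proteoglycan decorin of fibroblasts, by 0.691 (adjusted p = 0.319). Hbb differed by 0.525 (adjusted p = 0.767). Their part in the C1qa difference was not tested. Of 8 T cell, 3 B cell, 3 neutrophil and 8 mast cell genes measured, 0 reached an unadjusted p under 0.05 in T1800, against the same shares of all probe sets.

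Genes outside the set were ranked by Pearson's r with the mean of the 9 scaled genes over the 31 arrays, as a description, with the group means left in. That mean pools genes that ran apart: with the mean of the other 8, r was 0.876 for C1qa and 0.630 to 0.781 for C1qb, C1qc, Cd68 and Lyz2, but 0.222 for Aif1, 0.151 for Cd163, -0.0059 for Csf1r and -0.557 for Mrc1. The 6 closest of 14208 were Psme1 (r = 0.818), a subunit of the proteasome activator, Cfd (0.801), LOC100910973 (0.798), Ecm1 (0.792), an extracellular matrix protein, Ifi27 (0.775), an interferon-induced gene, and Aprt (0.772), an enzyme of purine salvage. With group means taken out, r was 0.780 for Psme1, 0.654 for Cfd and 0.736 to 0.791 for the other 4. Psme1 differed by 0.201 in T1800 against Control (limma adjusted p = 0.529). The values compared share the arrays and their RNA quality, and the correlation of the 6 genes with the actin gap was -0.736 to -0.251.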

How the data were processed

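RNA of 31 testes was measured, 1 array per animal. The authors deposited 1 score per probe set and array; their summarisation, background correction and normalization are not given in the sources used here. Per the labels' protocols, RNA was DNase treated and copied from an oligo-dT primer to biotin cRNA. Group and replicate number came from the labels. The 31099 probe sets were quantile normalized here, 57 control probe sets were left out, and limma 3.58.1 in R 4.3.3 fitted 1 mean per group over all arrays. The 12 contrasts were tested with eBayes and Benjamini-Hochberg adjustment over 31042 probe sets, and 0.05 was the threshold. Correlations used 100000 permutations in Python 3.11.15 with scipy 1.17.1. The fit was tested on simulated data.

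The platform annotation, which can be old, gave 20826 probe sets 1 symbol, 436 several and 9780 none, and none was named from several. Members and lists were chosen with earlier results of these data known. Every probe set of a member is reported; the probe set of highest mean stands for a gene. Of other genes, the 6 most correlated with the members' mean and up to 4 of smallest p per list were named; Alb marks the liver arrays. Correlations between same-numbered arrays ran from -0.768 to 0.775, with medians of -0.157 to 0.256 by replicate number. Whether replicate numbers pair the arrays was not tested, and the main fit did not pair them. The array number limits the precision: over probe sets, the standard error against Control had a median of 0.0327 to 0.0382 by group. Alternatives were scores as deposited, array weights, only the groups compared, the actin gap as a covariate or a limit, leaving out the high-Alb arrays, the animal series, a replicate block, probe sets above bioB, and each array left out in turn.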

Additional observations from a re-analysis of the deposited data

Results flagged for a closer look

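Of 60 groups of 4 to 6 arrays examined, 15 held an array whose gap to its nearest neighbour was large for the group's range by Dixon's test, where chance gives about 1 in 20. Arrays of high actin gap account for 8 of the 15. C1qa, Lyz2 and Mrc1 scored 0.0126, 0.732 and 1.69 on P2500 replicate 05, and Aif1 (1368558_s_at) and Mrc1 scored 2.07 and 1.59 on M2000 replicate 05. On Control arrays of high gap, C1qa scored -0.0192 on replicate 06, and Csf1r and Cd163 scored 0.248 and 0.138 on replicate 02.

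T1800 replicate 05 was the lowest of its group for C1qa (0.194) and Lyz2 (1.005), and both scores lay above every Control array. Csf1r stood apart on P2500 replicate 01 (0.219) and on T500 replicate 04 (-0.0047). Lyz2 did so on P500 replicate 02 (0.827), Aif1 (1368558_s_at) on P500 replicate 04 (2.35) and Aif1 (1369489_at) on P2500 replicate 01 (0.160).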

How the results depend on the processing

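C1qa, C1qb, C1qc, Cd68, Lyz2 and Csf1r kept their direction in T1800 against Control under every alternative run on them (of the 10, only Lyz2, Mrc1 and 1368558_s_at of Aif1 enter the one limited to probe sets above bioB), and C1qa and Csf1r did in P2500. The count of probe sets called among the 10 was 0 in each comparison and 1 with array weights in T1800 against Control (264 of all probe sets called, against 2 with equal weights), in P2500 against Control (882, against 0) and in T1800 against T500 (36, against 1), each C1qa. In P2500 against P500 it was 3 with array weights (855, against 0) and 2 without the arrays of high actin gap (426; C1qa and C1qc). Leaving out single arrays gave counts of 0 to 1 in P2500 against Control and in P2500 against P500, the 1 being C1qa without P2500 replicate 05 (283 and 242 of all probe sets called). Over the 12 comparisons these settings called 0 to 882 of all probe sets, against 0 to 2. With the replicate block 0 of the 10 were called, and the C1qa difference in T1800 was 0.150 (adjusted p = 0.539).

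Several differences changed sign, among them those of Aif1 (1368558_s_at), 0.290 in T1800 and 0.171 in P2500, and the cause was not tested. In T1800 with array weights Cd163 was 0.0309 and Mrc1 0.0421; with the actin gap as a covariate they were 0.0113 and 0.0437, and without the arrays of high gap 0.0171 and 0.0441, with Aif1 (1368558_s_at) at -0.0113. Aif1 (1369489_at) was 0.0029 with the animal series as a block and 0.0165 in the later series alone, where Cd163 was 0.0176. Leaving out single arrays gave -0.0452 to 0.0178 for Cd163 (0.0115 without Control replicate 02, 0.0178 without T1800 replicate 05) and -0.0098 to 0.0097 for Aif1 (1369489_at; 0.0017 and 0.0097 without Control replicates 02 and 03, 0.000296 and 0.0024 without T1800 replicates 02 and 04).

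In P2500 with array weights Cd163 was 0.0345 and Aif1 (1368558_s_at) -0.0379. With the gap as a covariate C1qc was -0.0051 and Mrc1 0.0374, and without the arrays of high gap Cd163 was 0.0340, Aif1 (1368558_s_at) -0.0452 and Mrc1 0.0066. Without the 3 arrays of high Alb C1qb was -0.0565, C1qc -0.0682, Cd68 -0.0263, Lyz2 -0.0019, Aif1 (1369489_at) 0.0050 and Mrc1 0.208. C1qc was -0.0044 with the animal series as a block, and C1qb and C1qc were -0.0104 and -0.0032 in the earlier series alone. With the replicate block C1qb was -0.00097, C1qc -0.0184 and Mrc1 0.0336. Leaving out single arrays gave -0.0142 to 0.0449 for C1qc (-0.0142 without Control replicate 06, -0.0071 and -0.0133 without P2500 replicates 03 and 04), -0.128 to 0.0514 for Mrc1 (0.0514 and 0.0340 without Control replicates 02 and 06, 0.0057, 0.0347 and 0.0359 without P2500 replicates 02, 03 and 04), -0.0061 to 0.0324 for Cd68 and -0.0352 to 0.0189 for Cd163 (both lost their sign without Control replicate 02), and -0.0155 to 0.0048 for Aif1 (1369489_at; 0.0048 without Control replicate 03).

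Most of these probe sets scored below the low spiked control bioB, where small differences are least certain, and 3 to 6 arrays per group limit the precision.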
